A study of Mus musculus with 8 samples.

Results

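The secreted Wnt ligands, their Frizzled receptors and the secreted antagonists of the Sfrp and Dkk families were followed through the knockdown of Kdm2b in mouse embryonic stem cells (ESCs). Members were all genes whose symbol is Wnt, Fzd, Sfrp or Dkk, then a number and an optional letter, and which had a microarray probe set naming that gene alone. The rule found 37 genes of the 19938 with such a probe set, namely 19 Wnt, 10 Fzd, 4 Sfrp and 4 Dkk genes. Gene expression was compared in E14 mouse ESCs, a feeder-independent line, that carried a stable lentiviral shRNA against Kdm2b (knockdown, 4 arrays) or a stable scrambled shRNA (control, 4 arrays). All cells of both groups had been infected and selected with puromycin. A single shRNA was used per group and the replicates are not said to be independent lines, so the p-values reflect variation among samples only. Knockdown samples were of passages 27 to 30 and control samples of passages 28 to 31. The question was how the members responded when Kdm2b mRNA was lowered.

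Wnt proteins are secreted lipid-modified ligands. In the canonical branch they bind a Frizzled receptor together with Lrp5 or Lrp6, which spares beta-catenin from destruction and lets it act with TCF and LEF factors in the nucleus. Other Wnts act through Ror or Ryk receptors and the planar cell polarity machinery. Sfrp proteins resemble the Wnt-binding part of Frizzled and bind ligands outside the cell, while most Dkk proteins bind Lrp5 and Lrp6. In mouse ESCs canonical signalling is known to favour self-renewal, and it later drives formation of the primitive streak. KDM2B binds non-methylated CpG DNA and belongs to a variant polycomb complex.

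The shRNAs are 21 bases long and are shown because all comparisons rest on this pair.
shKdm2b: cgctgtggaaatatctgtcat
shScrambled: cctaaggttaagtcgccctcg
The log2 fold change of Kdm2b itself, knockdown over control, was -2.05 with a standard error (SE) of 0.18 and a limma adjusted p = 0.000891. Its signal fell by 75.9%.

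Since KDM2B recognises CpG, promoter sequence of members is shown with each CpG in capitals. The RefSeq promoter table for GRCm38.p6, with windows of 300 bases (250 before and 50 after a start), held 25 of the 37 members in 28 windows. Sfrp1, Wnt5a, Fzd2, Fzd8, Wnt8a and Dkk3 are among the members without an entry. Shown are the 250 bases before the start of Wnt3 and Wnt6, whose knockdown and control arrays did not overlap, of Wnt9b, the chromosomal neighbour of Wnt3, and of Wnt10b, the ligand with the highest fold change. Wnt3a, Fzd4 and Fzd5, with 45, 32 and 38 CpGs in their windows, are not shown.
Wnt3, chr11:103773925-103774174, plus strand: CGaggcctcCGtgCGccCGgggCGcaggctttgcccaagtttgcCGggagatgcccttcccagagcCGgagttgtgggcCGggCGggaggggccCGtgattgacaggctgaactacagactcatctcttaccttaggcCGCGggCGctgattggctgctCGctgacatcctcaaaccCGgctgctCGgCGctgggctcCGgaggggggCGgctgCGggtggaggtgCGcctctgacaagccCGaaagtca
Wnt9b, chr11:103749822-103750071, minus strand: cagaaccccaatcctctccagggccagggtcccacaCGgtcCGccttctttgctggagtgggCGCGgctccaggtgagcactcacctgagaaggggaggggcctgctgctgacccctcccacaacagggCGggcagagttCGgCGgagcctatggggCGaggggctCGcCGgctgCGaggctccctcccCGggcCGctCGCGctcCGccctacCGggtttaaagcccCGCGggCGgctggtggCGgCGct
Wnt6, chr1:74771642-74771891, plus strand: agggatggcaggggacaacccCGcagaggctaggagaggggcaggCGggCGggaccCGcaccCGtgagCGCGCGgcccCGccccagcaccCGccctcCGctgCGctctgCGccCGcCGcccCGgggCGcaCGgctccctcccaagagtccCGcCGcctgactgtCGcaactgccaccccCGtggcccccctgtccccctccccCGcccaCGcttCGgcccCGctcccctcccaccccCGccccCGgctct
Wnt10b, chr15:98778151-98778400, minus strand: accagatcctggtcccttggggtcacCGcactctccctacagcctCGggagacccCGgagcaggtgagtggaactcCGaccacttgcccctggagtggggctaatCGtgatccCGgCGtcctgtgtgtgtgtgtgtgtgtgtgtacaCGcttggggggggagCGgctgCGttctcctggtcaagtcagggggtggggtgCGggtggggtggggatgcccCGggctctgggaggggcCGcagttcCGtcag
These stretches hold 22 CpGs in Wnt3, 22 in Wnt9b, 28 in Wnt6 and 14 in Wnt10b.

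Members' promoter windows were rich in CpG. The median was 26.5 CpGs per window (range 4 to 58) over the 28 windows of members and 7 over all 32851 windows in the table. At least 20 CpGs stood in 19 of the 28 windows (67.9%), against 26.5% of all windows. The median G and C content was 68.7% for members and 52.7% for all windows. The heptamers CTTTGAT and CTTTGAA, bound by TCF and LEF factors, were searched on both strands, and they cannot overlap at one position because their last bases differ. CTTTGAT stood in 1 window each of Wnt11 and Wnt5b and CTTTGAA in that of Dkk1, so that 3 of 28 windows (10.7%) held a match, against 8.65% of all windows.

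**Figure D1:**
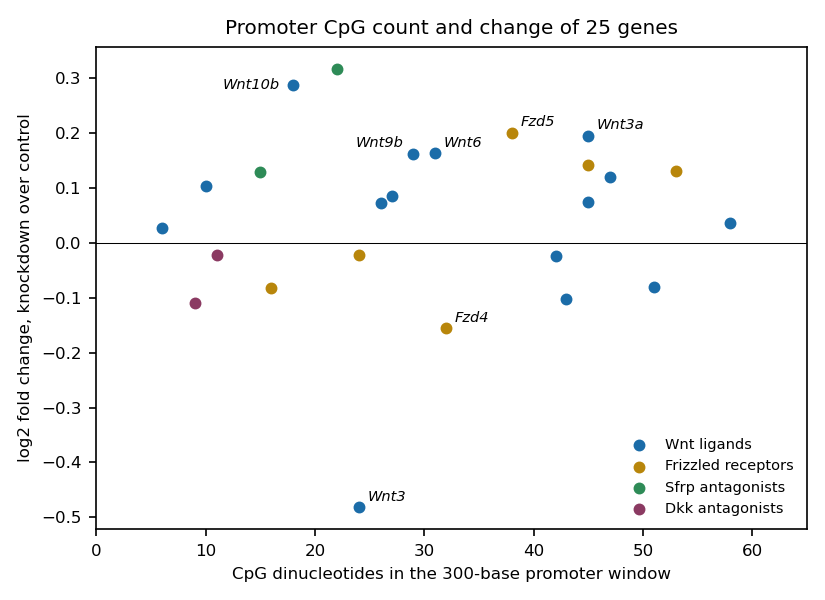
Number of CpG dinucleotides in the 300-base promoter window (x axis) against the log2 fold change of knockdown over control (y axis) for the 25 members in the RefSeq promoter table, 1 point per gene, with the CpG-richest window where a gene has several. Wnt3 lies alone at the bottom with 24 CpGs, and members with 40 to 60 CpGs lie between -0.10 and 0.19.

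Before the results, the arrays differed in ways that touch them. The deposited values have array medians from 8.47 to 8.53 on the log2 scale. Taken over the 37 members, the median difference from the control mean was 0.18 in knockdown replicate 1 and 0.03, -0.01 and 0.03 in knockdown replicates 2 to 4. The control arrays lay between -0.04 and 0.02, so that knockdown replicate 1 stood apart. The mean level of 10 pluripotent-cell genes, 9 of them above the 90th percentile of probe sets, was 13.29 to 13.33 in the knockdown and 13.03 to 13.18 in the control arrays. None met the gene rule given in the next paragraph, although 7 had an unadjusted p under 0.05 upwards (limma), against 16.8% of all genes. Among them Fgf4, at 0.37, also had an adjusted p under 0.05 (limma adjusted p = 0.0238). Neural markers (5 of 5 measured) averaged 8.87 to 8.95 in knockdown and 9.07 to 9.33 in control arrays, with Pax6 called lower, Nes at -0.78 (limma adjusted p = 0.0512), and Tubb3, Sox1 and Zic1 at 0.29, 0.18 and 0.06, none of these 4 called. Trophoblast markers (5 of 5) averaged 8.69 to 8.99 and 8.91 to 9.63, with Krt8 called lower and the other 4 not called. Mesendoderm markers (4 of 5) averaged 8.70 to 8.94 and 8.47 to 8.70, with none called. All 4 were above 0, with Eomes the highest at 0.77 (limma adjusted p = 0.0533). Primitive endoderm markers (7 of 7) averaged 8.74 to 9.02 and 8.73 to 8.89, with none called, 5 above 0 and 2 below. They ran from Dab2 at -0.95 (limma adjusted p = 0.0525) to Sox7 and Gata4 at 0.40 (limma adjusted p = 0.0279 and 0.0877). Fibroblast markers (7 of 8) averaged 7.99 to 8.24 and 7.95 to 8.33, with Thy1 called higher at 0.72. The other 6 fibroblast markers were not called, 4 of them with negative fold changes, from -0.35 for Dcn to -0.01 for Col1a2. Their part in the results was not tested, and in bulk RNA fewer cells of a type and less RNA per cell cannot be told apart.

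Of the 37 members, Sfrp1 rose and Wnt5a fell in the knockdown cells, and the other 35 did not meet the gene rule. The rule calls a gene changed when a majority of its own probe sets have an adjusted p under 0.05 in limma's linear model and the most significant one changes at least 1.5-fold. That model had no block, so p-values and intervals leave out the pairing of same-numbered arrays unless a block is named. Over all genes it called 1.42% higher and 1.43% lower, so that 1 of 37 in each direction is near the share of all genes. With adjusted p alone, 1 member was higher (Sfrp1) and 3 were lower (Wnt5a, Fzd8 and Fzd2), against 5.75% and 4.55% of all genes. An unadjusted p under 0.05 was reached by 6 members upwards and 6 downwards, against 16.8% and 13.6% of all genes. The 4 knockdown arrays lay above all control arrays for 2 members (Sfrp1 and Wnt6) and below them for 5 (Wnt5a, Wnt3, Wnt8a, Fzd2 and Fzd8), against 11.8% and 9.18% of all genes. The median log2 fold change was 0.07 over the members, with 24 above 0 and 13 below. Over all genes it was 0.05, with 12296 above 0 and 7642 below. Without knockdown replicate 1 the members' median was 0.02. With only the 3 arrays per group of passages 28 to 30 and passage as a block, limma called no member. No other tool was run. In that fit 2 members had a limma unadjusted p under 0.05 upwards and 5 downwards, and the share of all genes is not given for it. Its block joined knockdown replicates 2, 3 and 4 with control replicates 1, 2 and 3, not same-numbered arrays. Deviations from group means correlated at -0.0454, -0.0899 and -0.0977 in these pairs. Matched passage, fewer arrays and the lost pairing cannot be told apart in that fit.

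**Figure D2:**
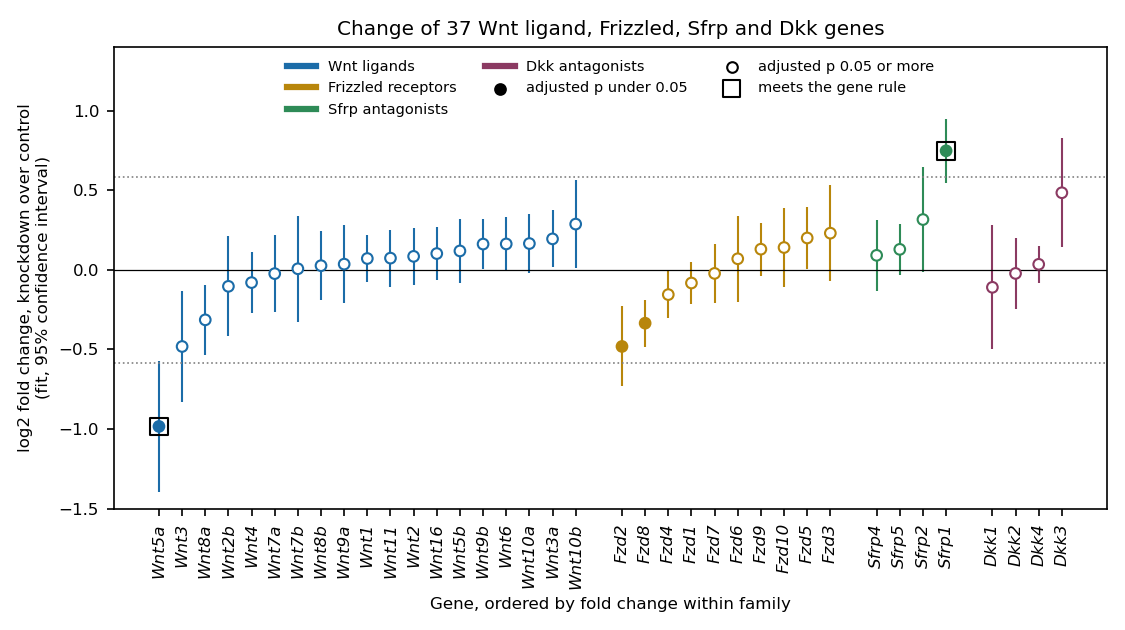
Log2 fold change of knockdown over control (y axis) for each of the 37 members (x axis), ordered within family, with bars for the 95% confidence interval (CI) of the fit and dotted lines at 1.5-fold. Wnt5a at -0.98 and Sfrp1 at 0.75 are the members beyond the dotted lines, and most intervals cross 0.

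Among the 19 ligands, Wnt5a was the one that fell. Wnt5a is the prototype of ligands that act through Ror receptors and cell polarity rather than through beta-catenin. On the log2 scale, knockdown replicates 1 to 4 read 7.90, 7.72, 7.82 and 7.51, while control replicates 1 to 4 read 9.14, 8.59, 8.89 and 8.25, and all array values are given in this order. Every knockdown array lay below every control array, and the control arrays spread more widely than the knockdown arrays. Wnt5a thus changed by -0.98 on the log2 scale (SE 0.18, 95% CI -1.39 to -0.57, limma adjusted p = 0.0168), a signal 1.98-fold lower. The call was lost without knockdown replicate 2, knockdown replicate 4 or control replicate 3 (limma adjusted p = 0.0552, 0.0527 and 0.0547), and with passages 28 to 30 alone (-1.19, limma adjusted p = 0.0519). Its probe set, with a mean below the median of all probe sets, is left out by a filter on dim signals.

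Wnt3 and Wnt8a, ligands of the early embryo that act around the primitive streak, were also lower in all 4 knockdown arrays than in any control array, without passing the adjusted test. Wnt3 read 8.29, 8.24, 8.28 and 8.12 in the knockdown and 9.23, 8.53, 8.58 and 8.53 in the control arrays. Control replicate 1 thus stood well above the other control arrays, which lay close together. The change of Wnt3 was -0.48 on the log2 scale (SE 0.15, limma adjusted p = 0.0909), and without control replicate 1 it was -0.31 (limma adjusted p = 0.0304), which is short of 1.5-fold. Wnt8a read 8.40, 8.43, 8.31 and 8.33 in the knockdown arrays and 8.97, 8.56, 8.55 and 8.63 in the control arrays. Its highest value also came from control replicate 1. For Wnt8a the log2 fold change was -0.31 (SE 0.10, 95% CI -0.53 to -0.09, limma adjusted p = 0.0830).

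A further 4 ligands had positive fold changes with values given here because their unadjusted p was under 0.05 or their groups did not overlap. None passed the adjusted test. Of the 19 ligands, 11 had a mean below the median of all probe sets, with Wnt3, Wnt3a and Wnt10b among them beside Wnt5a. Wnt10b, a canonical ligand known for restraining fat cell formation, read 8.81, 8.53, 8.21 and 8.34 in the knockdown and 8.17, 8.23, 8.23 and 8.11 in the control arrays. Knockdown replicate 3 lay within the control values, and the other knockdown arrays lay above them. The log2 fold change was 0.29 (SE 0.12, limma adjusted p = 0.176), and 0.17 without knockdown replicate 1. Wnt3a, a canonical ligand needed for somite-forming mesoderm, read 8.67, 8.46, 8.31 and 8.46 in the knockdown and 8.29, 8.35, 8.21 and 8.27 in the control arrays. Its groups overlapped through knockdown replicate 3, with a log2 fold change of 0.19 (SE 0.08, limma adjusted p = 0.164).

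Wnt6, a ligand made by epithelia, was the ligand whose knockdown arrays all lay above the control arrays. It read 8.84, 8.65, 8.56 and 8.56 in the knockdown and 8.54, 8.53, 8.50 and 8.39 in the control arrays. The step between the groups was small beside knockdown replicate 1, which was the highest array, and the log2 fold change was 0.16 (SE 0.08, limma adjusted p = 0.215), or 0.10 without that array. Wnt9b, known for inducing kidney tubules, read 9.07, 9.04, 8.91 and 9.14 in the knockdown and 8.83, 8.99, 8.82 and 8.88 in the control arrays. Knockdown replicate 3 and control replicate 2 overlapped, and the log2 fold change was 0.16 (SE 0.07, limma adjusted p = 0.176).

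The remaining 12 ligands had log2 fold changes between -0.10 and 0.17, 9 of them above 0. The lowest were Wnt2b at -0.10, Wnt4 at -0.08 and Wnt7a at -0.02. Wnt4, needed for female reproductive tract and kidney development, has a pair of own probe sets, and the other one gave -0.07. Wnt7b was at 0.01, Wnt8b at 0.03 and Wnt9a at 0.04. Wnt1 and Wnt11 were both at 0.07, Wnt2 was at 0.08, Wnt16 at 0.10, Wnt5b at 0.12 and Wnt10a at 0.17. Wnt5b, the closest relative of Wnt5a, thus had a value of opposite sign to it, with a standard error of 0.09 and an adjusted p of 0.428 from limma, and the difference between these genes was not tested.

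Several ligand genes sit side by side in the genome, and 4 pairs of members are adjacent protein-coding genes. The Wnt6 and Wnt10a pair on chromosome 1 had log2 fold changes of 0.16 and 0.17. Wnt3a and Wnt9a on chromosome 11 had 0.19 and 0.04, and Wnt10b and Wnt1 on chromosome 15 had 0.29 and 0.07. In these 3 pairs both neighbours were above 0, as were 24 of the 37 members and 12296 of all 19938 genes. Wnt9b and Wnt3, also on chromosome 11, had opposite signs, with 0.16 and -0.48, and no difference between neighbours was tested.

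**Figure D3:**
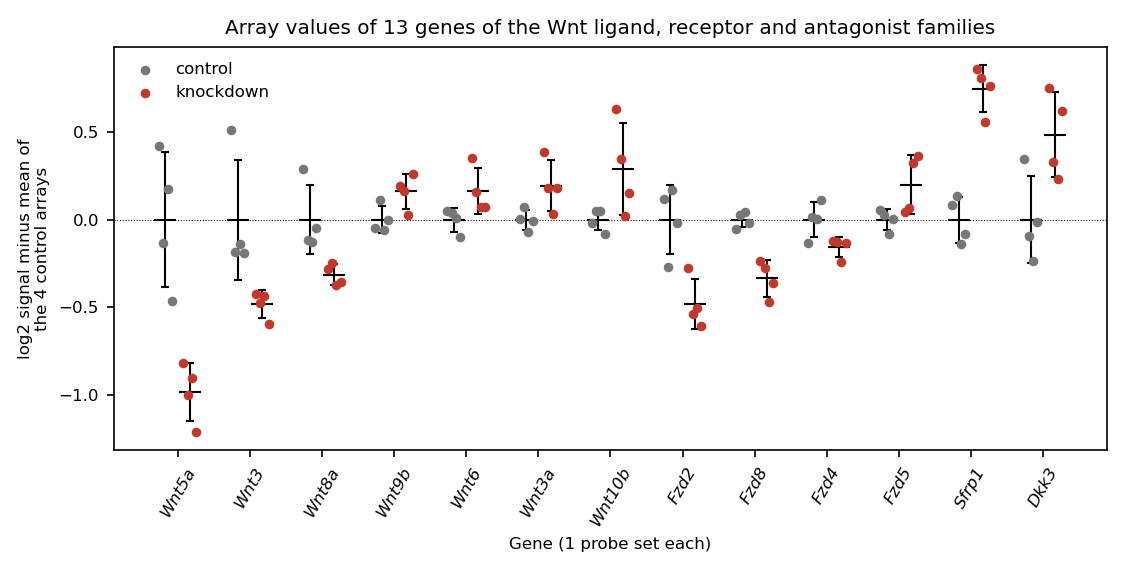
Log2 signal of each array minus the mean of the 4 control arrays (y axis) for the 13 members described array by array (x axis). Grey points are the 4 control arrays and red points the 4 knockdown arrays, in replicate order from left to right, with the mean and SD of each group in black. The red points of Wnt5a lie wholly below and those of Sfrp1 wholly above the grey points, and control replicate 1 is the far grey point of Wnt3.

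Among the 10 Frizzled receptors, Fzd2 and Fzd8 fell by the adjusted p, by less than 1.5-fold, and the median of the family was 0.02. Fzd2 and Fzd8 are both known to take part in canonical signalling, and Fzd2 also serves as a receptor for Wnt5a. Fzd8 read 8.52, 8.48, 8.28 and 8.39 in the knockdown and 8.70, 8.78, 8.80 and 8.73 in the control arrays. The control arrays were tightly grouped and the knockdown arrays were all below them. For Fzd8 the log2 fold change was -0.34 (SE 0.06, 95% CI -0.48 to -0.19, limma adjusted p = 0.0198). Fzd2 read 9.53, 9.26, 9.30 and 9.19 in the knockdown and 9.92, 9.53, 9.97 and 9.78 in the control arrays. Knockdown replicate 1 lay just below control replicate 2, so that the groups did not overlap but touched. For Fzd2 it was -0.48 (SE 0.11, 95% CI -0.73 to -0.23, limma adjusted p = 0.0343). When each array was left out in turn, an adjusted p under 0.05 was kept in 3 of 8 fits for Fzd8 (0.0183 to 0.0664 over the 8, from limma) and in 3 of 8 for Fzd2 (0.0241 to 0.0979). The losses came without knockdown replicates 2 or 4 or control replicates 3 or 4 for both genes, without control replicate 2 for Fzd8 and without control replicate 1 for Fzd2. With passages 28 to 30 alone neither passed (limma adjusted p = 0.144 for Fzd8 and 0.135 for Fzd2).

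Fzd4 and Fzd5 reached an unadjusted p under 0.05 in opposite directions. Fzd4, which also serves as the receptor for Norrin in retinal vessels, read 8.48, 8.47, 8.36 and 8.47 in the knockdown and 8.47, 8.61, 8.61 and 8.71 in the control arrays. Control replicate 1 lay among the knockdown values. Fzd4 had a fold change of -0.16 on the log2 scale (SE 0.06, limma adjusted p = 0.175). Fzd5, a receptor required in the yolk sac and eye, read 10.81, 10.83, 11.09 and 11.13 in the knockdown and 10.82, 10.79, 10.68 and 10.77 in the control arrays. Knockdown replicates 3 and 4 were higher than all control arrays while replicates 1 and 2 were level with them, and the log2 fold change was 0.20 (SE 0.09, limma adjusted p = 0.182). The other 6 receptors lay between -0.08 and 0.23 and had an unadjusted p of 0.05 or more. They were Fzd1 at -0.08, Fzd7 at -0.02, Fzd6 at 0.07, Fzd9 at 0.13, Fzd10 at 0.14 and Fzd3 at 0.23. For Fzd7, a receptor known for its expression in pluripotent cells, the 95% CI of the log2 fold change was -0.21 to 0.16.

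Among the antagonists, Sfrp1 rose, with the smallest p of all 37 members. Sfrp1 read 12.49, 12.43, 12.18 and 12.39 in the knockdown and 11.71, 11.76, 11.49 and 11.54 in the control arrays. All knockdown arrays lay clear of all control arrays. In both groups replicate 3 was the lowest. Sfrp1 changed by 0.75 on the log2 scale (SE 0.09, 95% CI 0.55 to 0.95, limma adjusted p = 0.00351), a signal 1.68-fold higher. The call stood in all 8 fits that left out 1 array (0.70 to 0.81, limma adjusted p = 0.00329 to 0.0181) and was lost with passages 28 to 30 alone (0.68, limma adjusted p = 0.0821). The other 3 Sfrp genes also had positive fold changes without passing the test. Sfrp2 averaged 11.38 ± 0.18 in the knockdown and 11.06 ± 0.28 in the control arrays (SD, n = 4 each), with a log2 fold change of 0.32 (SE 0.15, limma adjusted p = 0.213), while Sfrp5 was at 0.13 and Sfrp4 at 0.09.

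Dkk3, the divergent Dkk that is not known to bind Lrp6, had the largest fold change of the 4 Dkk genes. It read 9.18, 8.77, 8.67 and 9.06 in the knockdown and 8.78, 8.34, 8.20 and 8.42 in the control arrays. Control replicate 1 overlapped with the knockdown arrays, yet each knockdown array lay above the control array of its own replicate number. The log2 fold change was 0.48 (SE 0.15, 95% CI 0.14 to 0.83, limma adjusted p = 0.0865). When same-numbered arrays were blocked its limma adjusted p was 0.0119, still short of 1.5-fold, and without control replicate 1 it met the gene rule (0.60, adjusted p = 0.0390). The other 3 Dkk genes lay between -0.11 and 0.03. Dkk1, an antagonist that is itself a target of beta-catenin, was at -0.11 (95% CI -0.50 to 0.28), Dkk2 at -0.02 and Dkk4 at 0.03.

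The wider pathway was read from 99 other genes, of which 97 had a probe set of their own. The gene rule called 2 higher (Dkkl1 and Gpc3) and 2 lower (Ror1 and Ccnd1), against 1.42% and 1.43% of all genes. Adjusted p alone gave 10 higher and 5 lower, against 5.75% and 4.55%, and the median log2 fold change was 0.02. A fit that blocked same-numbered arrays called 3 higher (Csnk1e, Dkkl1 and Gpc3) and 4 lower (Ccnd1, Lef1, Notum and Ror1). The share of all genes called in that fit is not given here. Without a block Lef1 was at -0.74 (limma adjusted p = 0.231) and Csnk1e at 0.66 (limma adjusted p = 0.0541), both with overlapping groups. Over all arrays, and without a block, 22 of 97 had an unadjusted p under 0.05 upwards and 18 downwards (limma), against 16.8% and 13.6% of all genes. With passages 28 to 30 alone limma called none, while these counts were 18 and 11. The share of all genes is not given for that fit. Among 8 co-receptors and alternative receptors, Ror1, a receptor tyrosine kinase that binds Wnt5a, read 8.79, 8.75, 9.13 and 8.59 in the knockdown and 9.54, 9.74, 10.25 and 9.79 in the control arrays. No knockdown array reached a control array, and the log2 fold change was -1.01 (SE 0.16, limma adjusted p = 0.0103). Ptk7, a pseudokinase receptor of planar cell polarity, read 10.24, 10.10, 10.02 and 10.23 against 10.67, 10.51, 10.63 and 10.57, with a log2 fold change of -0.45 (limma adjusted p = 0.00853). Both genes kept an adjusted p under 0.05 in each of the 8 fits without 1 array. Gpc3, a glypican of the cell surface, was higher by 0.69 (limma adjusted p = 0.0127) and Lrp6 by 0.31 (limma adjusted p = 0.0459). Lrp6 kept an adjusted p under 0.05 in 2 of those 8 fits (0.0428 to 0.126).

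Among cytoplasmic proteins, the genes of 25 transducers and members of the destruction complex gave no call by the gene rule, with 5 at an unadjusted p under 0.05 upwards and 6 downwards, against 16.8% and 13.6% of all genes. Gsk3b, the kinase that marks beta-catenin for destruction, had a log2 fold change of -0.40 (adjusted p = 0.0160), Frat1, which binds that kinase, 0.41 (adjusted p = 0.0287), and Btrc, a ubiquitin ligase subunit, 0.25 (adjusted p = 0.0402), all from limma. Ctnnb1, the gene of beta-catenin, was at 0.01 (95% CI -0.10 to 0.11). Of the 13 target genes, 6 had positive and 7 negative fold changes. Ccnd1, a cyclin of the cell cycle, fell by 0.72 on the log2 scale (limma adjusted p = 0.0157). Myc was at -0.88 with overlapping groups (limma adjusted p = 0.142), and met the gene rule without knockdown replicate 3. Sp5 was at -0.33 (limma adjusted p = 0.0488) and Cdx4 at 0.26 (limma adjusted p = 0.0304). Cdx4 was dim, averaging 6.43 in knockdown and 6.17 in control arrays, against array medians of 8.47 to 8.53. Axin2, a feedback inhibitor widely used to read the pathway, was at -0.14 (limma adjusted p = 0.479). Its signal was 9.98 in control replicate 1 and 9.60, 9.42 and 9.49 in control replicates 2 to 4. Without control replicate 1 Axin2 was at -0.02. The call of Ccnd1 was lost without knockdown replicate 2, knockdown replicate 4 or control replicate 2 (limma adjusted p = 0.0552, 0.0512 and 0.0509). Dkkl1, a Dkk3-related gene at 0.86 (limma adjusted p = 0.0229), lost its call without any of these (0.0740, 0.0627 and 0.0558) or control replicate 4 (0.0618). Of the remaining roles, the genes past the adjusted test or with the smallest p of their role were Rspo4 at 0.47 (adjusted p = 0.0247), Prickle2 at 0.34 (adjusted p = 0.0208), Ctnnbip1 at 0.21 (adjusted p = 0.0321), Apcdd1 at 0.32 (adjusted p = 0.0497) and Notum, a Wnt deacylase, at -0.69 (adjusted p = 0.0963), all from limma. Over the 8 fits without 1 array, an adjusted p under 0.05 was kept in 6 for Gsk3b, in 3 for Frat1, Rspo4, Prickle2 and Ctnnbip1, in 2 for Cdx4 and Apcdd1, and in 1 for Btrc and Sp5.

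**Figure D4:**
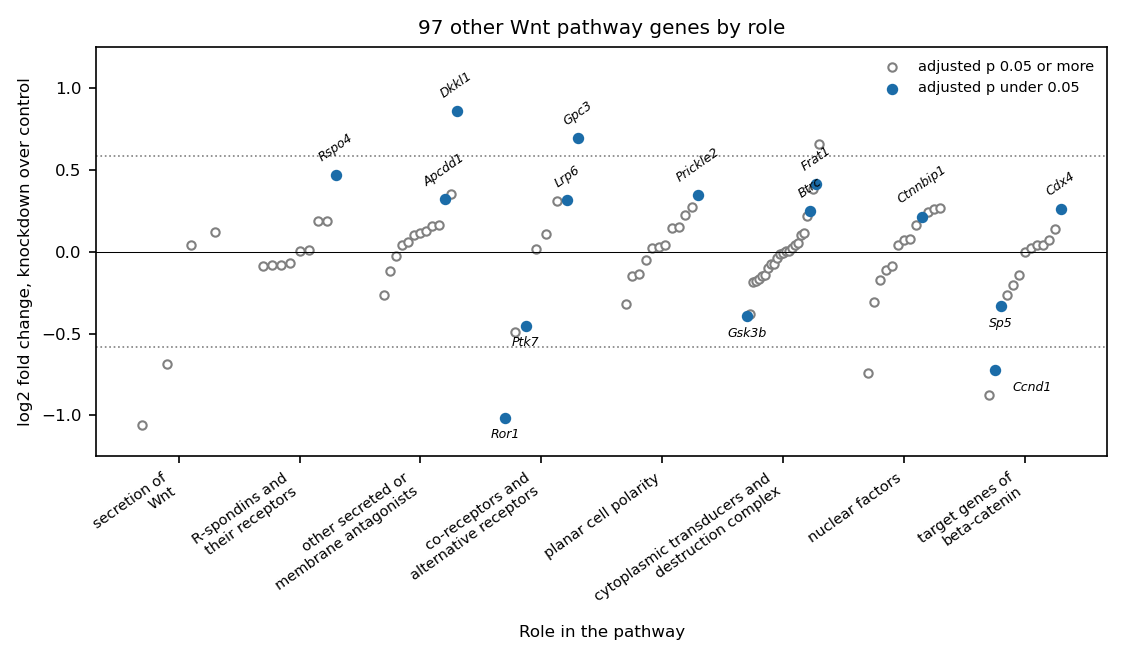
Log2 fold change of knockdown over control (y axis) for 97 other genes of the pathway, grouped by role (x axis), with 1 point per gene, filled and named where the adjusted p is under 0.05 and dotted lines at 1.5-fold. Ror1 and Ccnd1 lie below and Dkkl1 and Gpc3 above the dotted lines among the filled points.

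Wls carries Wnt ligands to the cell surface and is named here after its values were seen. It read 9.13, 9.26, 9.08 and 9.16 in the knockdown and 11.86, 9.77, 9.59 and 9.65 in the control arrays. The groups did not overlap, and control replicate 1 was far above the other control arrays, as it was for Wnt3. The log2 fold change of Wls was -1.06 (SE 0.46, limma adjusted p = 0.191) over all arrays and -0.51 (limma adjusted p = 0.0102) without control replicate 1.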

How the data were processed

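Total RNA of 8 samples was hybridised to Affymetrix Mouse Gene ST arrays, and samples were grouped by the shRNA in their labels. The authors deposited log2 values obtained by running RMA of oligo (1.18.1 in the submitters' processing notes) on the arrays, which corrects background, equalises the distribution of the arrays and gives 1 value per probe set. RMA compresses fold changes of dim probe sets and hides a shift shared by most transcripts. Scanner intensities were not used here, so that no other background correction was tried. For the authors' probe sets, build and annotation were not given in the sources used here.

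Of 35556 probe sets, 21789 name 1 gene in GEO's platform annotation (19938 genes), 1621 name several and 12146 have no name here. Symbols were updated through RefSeq for GRCm38.p6. All 37 members had 1 own probe set except Wnt4, which is given by the one with the smaller p.

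Knockdown was compared with control by lmFit and eBayes in limma 3.58.1 (R 4.3.3), without a block, two-sided p-values were adjusted over all probe sets by Benjamini-Hochberg, and genes were called by the study's rule (majority of probe sets at adjusted p under 0.05, at least 1.5-fold). The pipeline was tested on simulated arrays with planted shifts and independent noise, which does not cover paired arrays. Once group means were removed, arrays sharing a replicate number correlated at 0.118 to 0.355 and other arrays of opposite groups at -0.231 to 0.0747. As every shared number exceeded 0.1, the replicate numbers were taken to pair the arrays. Removing group means lowers the other correlations when the shared ones are positive, so this contrast is partly built in. Same-numbered arrays were never of the same passage, replicate 1 being of passage 27 in the knockdown and 28 in the control. The main fit did not use this pairing, and the fit with the replicate number as a block is among the alternatives. The number of arrays limits the precision.

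The members, the pathway and marker lists and the tests were chosen with earlier results of these data known. Array values are given for members that met the gene rule, had an adjusted or unadjusted p under 0.05 or had groups that did not overlap. Other pathway genes are named where they met the rule or had an adjusted p under 0.05, or had the smallest p of their role. Lef1, Csnk1e, Wls, Ctnnb1, Axin2, Myc and the markers were named after their values were seen. Tcf7 and T were not analysed here. Alternatives were the mean of a gene's probe sets, each array left out, the replicate number as a block, passages 28 to 30 with passage as a block, another variance prior, array weights, a filter on dim probe sets, median centring and adjusted p alone. Figures were drawn with matplotlib 3.10.9.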

Additional observations from a re-analysis of the deposited data

Results flagged for a closer look

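Of 114 groups of 4 arrays (57 genes), 8 had 1 array whose gap to its nearest neighbour took up an unusually large share of the group's range. Chance gives about 1 in 20 groups, and no cause was tested.

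Control replicate 1 was the distant array in 3 of these groups. Its log2 signal for Wnt3 was 9.23 against 8.58 in the next array (gap 0.927 of the range). For Dkk1 it was 9.09 against 8.39 (0.841), and for Wls it was 11.86 against 9.77 (0.919).

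Among the knockdown arrays, replicate 4 was low for Dkk1, at 8.24 against 8.47 (0.969), replicate 3 was low for Fzd4, at 8.36 against 8.47 (0.896), and replicate 2 was low for Wnt16, at 8.08 against 8.19 (0.837). Knockdown replicate 3 was high for Ccnd1, at 12.33 against 11.94 (0.843). Control replicate 3 was low for Frat1, at 8.33 against 8.46 (0.928).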

How the results depend on the processing

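With 15 alternatives and 56 named genes, 775 of 823 gene values kept their direction and their side of the gene rule, 16 calls were lost and 4 gained, and 28 values of uncalled genes changed sign. Most of these genes were uncalled throughout, so the 775 says little about how stable the calls were. All 16 losses fell on genes called with all arrays. Over the 8 fits without 1 array, the call stood in 8 for Sfrp1, Gpc3 and Ror1, in 5 for Wnt5a and Ccnd1, and in 4 for Dkkl1. The cause of these changes was not tested unless stated. The call of no member or pathway gene changed direction.

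Leaving out 1 array at a time gave 1 to 2 members higher and 0 to 1 lower, 1 to 3 other pathway genes higher and 1 to 4 lower, and 182 to 405 of all genes higher and 166 to 424 lower (284 and 285 with all arrays). The member gained was Dkk3, without control replicate 1. The lower call lost was Wnt5a, without knockdown replicate 2, knockdown replicate 4 or control replicate 3.

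With the arrays of passages 28 to 30 and passage as a block, which leaves 3 arrays per group, 0 members were called higher and 0 lower, 0 other pathway genes higher and 0 lower, and 88 of all genes higher and 72 lower. In that fit limma gave an unadjusted p under 0.05 for 2 members upwards and 5 downwards, and the share of all genes is not given for it. Its block does not join same-numbered arrays. With the replicate number as a block, which the pairing check allows, 4 other pathway genes were lower, Lef1 and Notum being added, Csnk1e was added to those higher, the members called were again Sfrp1 and Wnt5a, and no other call of a named gene by the gene rule changed. The number of all genes called with that block is not given here. Without dim probe sets 23 members were left and 0 were called lower, since the probe set of Wnt5a is removed. There limma gave an unadjusted p under 0.05 for 4 members upwards and 4 downwards, and the share of all genes is not given. With adjusted p alone, 3 members were lower, 10 other pathway genes higher and 5 lower, and 1147 of all genes higher and 908 lower. The median log2 fold change of the members stayed between 0.01 and 0.12 over all alternatives.

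Uncalled genes that changed sign ranged, over the fits without 1 array, from -0.147 to 0.111 for Wnt7b, -0.0436 to 0.091 for Wnt8b, -0.0201 to 0.111 for Wnt9a, -0.0992 to 0.0415 for Wnt7a, -0.193 to 0.0405 for Wnt2b, -0.0216 to 0.147 for Fzd6, -0.0828 to 0.0464 for Fzd7, -0.20 to 0.0767 for Dkk1, -0.0726 to 0.0587 for Dkk2 and -0.00940 to 0.0220 for Ctnnb1. With passages 28 to 30, Wnt7b was at -0.125, Wnt8b at -0.0286, Wnt9a at -0.0639 and Wnt11 at -0.0118. With array weights, Wnt2b was at 0.00515, Wnt7a at 0.00494, Wnt7b at -0.0657 and Dkk2 at 0.0387, and with median centring Wnt7b was at -0.012 and Ctnnb1 at -0.0128.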
